A study of Homo sapiens with 12 samples.

Results

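The 10 genes described here encode parts of the route by which B cells read cytokines. IL4R, IL21R and IL10RA are receptor chains for interleukin-4, interleukin-21 and interleukin-10, JAK1 and JAK2 are receptor-bound tyrosine kinases, STAT3 and STAT6 are transcription factors, and SOCS1, SOCS3 and CISH are feedback inhibitors. They were chosen by symbol, and all 10 were present among the 46863 gene symbols of the count table. After removal of genes with low counts, 16835 symbols were tested, among them 8 of the 10. SOCS3 and CISH lay below that limit.

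Expression was measured by RNA sequencing of polyadenylated RNA in SU-DHL-4, a human diffuse large B-cell lymphoma (DLBCL) cell line derived from a peritoneal effusion and labelled wt in genotype. Cells were exposed for 72 h to DMSO as the solvent control, to 1 µM Entospletinib (Ento), which inhibits the B-cell receptor kinase SYK, to 0.01 µM AZD5153 (AZD), a bivalent inhibitor of BET proteins, or to 1 µM Ento and 0.01 µM AZD together (Ento+AZD). Each of the 4 groups held 3 libraries, numbered as replicates 1 to 3. The data describe 1 cell line, 1 dose of each agent and 1 time point, so they hold no dose response and no time course. Library totals ranged from 18121993 to 24675830 counts, so that 1 count corresponded to 0.0393 to 0.0564 CPM (counts scaled to library size and normalized by TMM).

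When a cytokine binds, its receptor chains bring their JAKs together, the JAKs phosphorylate the receptor, and STATs dock there, are phosphorylated in turn and move to the nucleus. In B cells, interleukin-4 acts mainly through JAK1, JAK3 and STAT6, interleukin-21 mainly through JAK1, JAK3 and STAT3, and interleukin-10 through JAK1, TYK2 and STAT3. SOCS proteins and CISH are themselves switched on by STATs and then hold the receptors and kinases in check. Transcript levels say nothing of phosphorylation, which was not measured here. In RNA from bulk cultures, fewer cells that carry a transcript and less of it per cell cannot be told apart.

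The labelled cell type was compared with its markers. All 8 B-cell markers searched were tested, and their summed level ranged from 4675 to 8603 CPM over the 12 libraries. Markers of stromal cells summed to at most 0.183 CPM, of natural killer cells to at most 2.71 CPM and of myeloid cells to at most 6.04 CPM. Of 5 T-cell markers, 3 were tested and CD3D had no count in any library. Their sum lay at 21.5 to 23.6 CPM with DMSO and 17.7 to 23.9 CPM with Ento, but at 8.07 to 11.1 CPM with AZD and 6.91 to 8.56 CPM with Ento+AZD. With DMSO the means were 17.2 CPM for CD247, 4.39 CPM for TRAC and 1.32 CPM for CD3E, and CD3G never exceeded 2 counts in a library. The sum of the T-cell markers moved with AZD as some of the genes below did, and its part in those results was not tested.

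Genes were ranked by DMSO level per kilobase of exon, which allows those of different length to be roughly compared. STAT6 was the most abundant of the 10 at 40.6 CPM per kb. IL4R followed at 21.6 CPM per kb. IL21R stood at 9.91 and SOCS1 at 8.19 CPM per kb, and JAK1, STAT3 and JAK2 at 4.82, 4.45 and 2.82 CPM per kb. IL10RA was the lowest of the tested genes at 1.74 CPM per kb. Exon length was the union of all annotated exons, 1788 bases for SOCS1 and 13174 for JAK1, so the ranks depend on the annotation. The interleukin-4 receptor chain and its STAT were thus the strongest of the 10 transcripts in these cells without either inhibitor.

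The quantity tested was the log2 fold change in an edgeR quasi-likelihood model of all 12 libraries with treatment and replicate number as terms. A gene is said to have risen or fallen where the Benjamini-Hochberg adjusted p over all tested genes lay under 0.05, and is called a DEG where the absolute log2 fold change was also over 1. Against DMSO, Ento exposure changed 4 of the 8 tested genes, where 8.32% of all tested genes changed. JAK1, STAT6 and IL4R rose, as did 4.66% of all tested genes, and IL21R fell, as did 3.66%. AZD exposure also changed 4 of 8, where 22.2% of all tested genes changed. IL4R, JAK1 and STAT6 rose here too, against 9.57% of all tested genes, and IL10RA fell, against 12.7%. Ento+AZD raised 4 of 8 (IL4R, JAK1, STAT6 and STAT3) and lowered none, where 40.0% of all tested genes changed (19.2% rose and 20.8% fell), so that the share of changed genes is near the background. None of the 10 genes was a DEG in a comparison with DMSO or between exposures, whereas 1.63%, 3.19% and 8.32% of all tested genes were DEGs against DMSO with Ento, AZD and Ento+AZD. The median log2 fold change of the 8 genes was 0.26 with Ento, 0.23 with AZD and 0.38 with Ento+AZD, against 0.01 over all tested genes in each case. The 3 comparisons share their DMSO libraries.

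**Figure D1:**
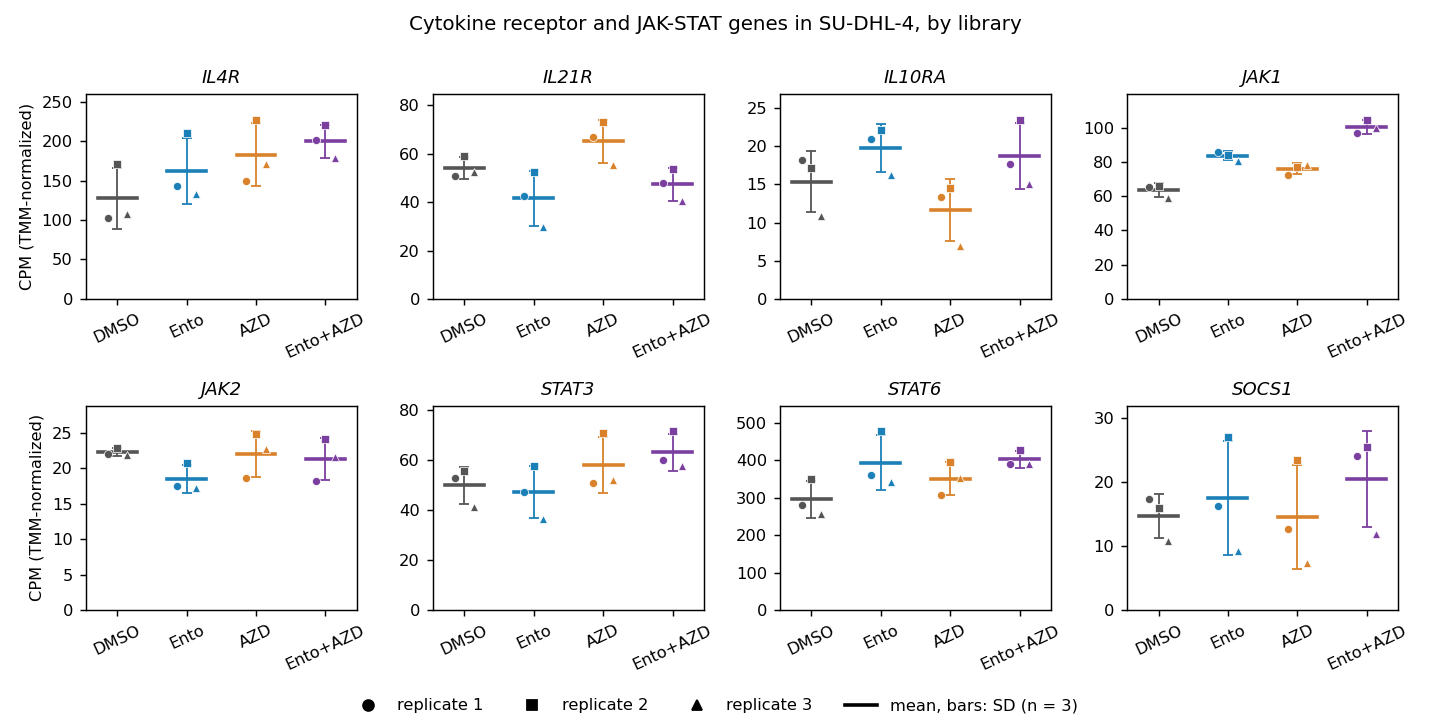
Expression of the 8 tested genes in each library (y axis, TMM-normalized CPM on a linear scale) by treatment group (x axis), with 1 point per library, shaped by replicate number, and horizontal lines and bars for mean and SD (n = 3). The 4 groups of JAK1 do not overlap one another, and SOCS1 and IL10RA are lowest in replicate 3 of every group.

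The changes were small, and most of them could be told from zero only when replicate number was in the model. Over the 6 pairwise comparisons of groups the 8 genes gave 21 calls. Of all tested genes, 8.32%, 22.2% and 40.0% were called against DMSO with Ento, AZD and Ento+AZD. Between exposures it was 20.4% for Ento+AZD against Ento, 11.9% for Ento+AZD against AZD and 14.7% for Ento against AZD. In the model without the replicate block, 1 of the 21 remained a call, the rise of JAK1 with Ento+AZD. The others had an edgeR adjusted p of 0.0641 to 0.588. The share of calls kept over all tested genes, here and on leaving out 1 library, is not given. Of the 21 calls, 8 held in every fit that left out 1 library. They were the rise of IL4R with AZD and with Ento+AZD, the rise of JAK1 and of STAT6 with Ento+AZD, the higher JAK1 and IL10RA with Ento+AZD than with AZD, and the higher IL10RA and lower IL21R with Ento than with AZD.

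Among the receptors, IL4R encodes the alpha chain that binds interleukin-4 and also takes part in the receptor for interleukin-13. Its gene lies at chr16:27313668-27364778 on the plus strand (GRCh38, GENCODE v44). Replicates 1, 2 and 3 held 102, 171 and 108 CPM with DMSO, 143, 210.5 and 133 CPM with Ento, 149.9, 227 and 171 CPM with AZD, and 202, 219.9 and 178 CPM with Ento+AZD. Replicate 2 was the highest library in every group, and all 3 Ento+AZD libraries lay above all 3 DMSO libraries, whereas the single-agent groups overlapped DMSO. Means were 127 ± 38.4 CPM with DMSO, 162 ± 42.3 with Ento, 182 ± 39.8 with AZD and 199.8 ± 21.0 with Ento+AZD (SD, n = 3).

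IL4R rose by a log2 fold change of 0.36 (SE 0.10, edgeR adjusted p = 0.0415) with Ento, 0.54 (SE 0.10, adjusted p = 0.00267) with AZD and 0.69 (SE 0.10, adjusted p = 1.28e-04) with Ento+AZD, and was higher than DMSO of the same replicate number in 3 of 3 pairs each time. The combined exposure thus stood 1.61-fold above DMSO (95% CI 1.39 to 1.87). It was higher than Ento alone by 0.33 (adjusted p = 0.0294), a difference lost without Ento replicate 1 or 3 or Ento+AZD replicate 1 or 3 (adjusted p up to 0.179). It could not be told from AZD alone, with a difference of 0.15 on the log2 scale (95% CI -0.06 to 0.37, adjusted p = 0.343). Without the replicate block the adjusted p was 0.588, 0.222 and 0.0705 for Ento, AZD and Ento+AZD against DMSO. The call with Ento was also lost in 7 of the 12 fits that left out a library (DMSO 1 or 3, Ento 1, 2 or 3, AZD 2 or Ento+AZD 3), with an adjusted p up to 0.204. An unnamed long non-coding RNA on the opposite strand shares 5.59% of the exon bases of IL4R, and the strand setting of the counting is not given in the sources used here.

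IL21R, the specific chain of the interleukin-21 receptor, is the next gene along chromosome 16, at chr16:27402174-27452042 on the plus strand, 37395 bases from the end of IL4R with no annotated gene between them. Its level was 50.7, 59.1 and 52.3 CPM in DMSO replicates 1, 2 and 3, 42.5, 52.6 and 29.7 CPM with Ento, 66.9, 73.1 and 55.5 CPM with AZD, and 48.0, 53.7 and 40.3 CPM with Ento+AZD. Every AZD library lay above every Ento and every Ento+AZD library, whereas DMSO overlapped each of the others. IL21R did not follow its neighbour. It fell with Ento by 0.41 on the log2 scale (SE 0.10, edgeR adjusted p = 0.0269), stood 0.26 above DMSO with AZD (SE 0.10, adjusted p = 0.0840), and stood at -0.20 with Ento+AZD (SE 0.10, adjusted p = 0.132). The value with AZD passed the test without DMSO 3 (adjusted p = 0.0180) or Ento 3 (adjusted p = 0.0437).

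The 2 agents were directly compared, and IL21R was lower with Ento than with AZD by a log2 difference of -0.67 (SE 0.10, adjusted p = 6.22e-04), a 0.63-fold level (95% CI 0.54 to 0.74). Addition of Ento to AZD lowered it by 0.46 (adjusted p = 0.0124), where 11.9% of all tested genes differed between Ento+AZD and AZD. This call was lost without AZD replicate 1 (adjusted p = 0.0622), and the fall with Ento against DMSO without DMSO 3, Ento 1 or Ento 3 (adjusted p up to 0.129). Fitted without the replicate block, the adjusted p was 0.464 for Ento against DMSO, 0.390 for Ento+AZD against AZD and 0.0860 for Ento against AZD. The antisense gene IL21R-AS1 overlaps 23.3% of the IL21R exon bases but held 3 to 13 counts per library, against 605 to 1587 for IL21R. Without a stated strand setting, reads of the 2 cannot be told apart in the shared part.

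IL10RA, the ligand-binding chain of the interleukin-10 receptor (chr11:117986370-118003037, plus strand), moved in the opposite sense to IL21R. It held 18.2, 17.1 and 10.8 CPM in DMSO replicates 1, 2 and 3, 21.0, 22.2 and 16.2 CPM with Ento, 13.4, 14.5 and 6.97 CPM with AZD, and 17.6, 23.4 and 15.1 CPM with Ento+AZD. All AZD libraries lay below all Ento and all Ento+AZD libraries, and DMSO overlapped each group.

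IL10RA fell with AZD by 0.42 on the log2 scale (SE 0.13, edgeR adjusted p = 0.0345), stood 0.38 above DMSO with Ento (SE 0.13, adjusted p = 0.0797) and 0.29 above it with Ento+AZD (SE 0.13, adjusted p = 0.0833). It was 1.75-fold higher with Ento than with AZD (95% CI 1.44 to 2.12, adjusted p = 9.09e-04) and 1.64-fold higher with Ento+AZD than with AZD (95% CI 1.35 to 2.0, adjusted p = 0.00527), the largest fold changes among the 8 genes in all 6 comparisons. The fall with AZD alone was lost without DMSO 1 or 3, Ento 1 or AZD 2 or 3 (adjusted p up to 0.208) and in the fit of the AZD and DMSO libraries alone, whereas the differences from AZD held in every fit that left out a library. Fitted without the replicate block, these 3 differences had an adjusted p of 0.429, 0.175 and 0.392 in the order given. With Ento the adjusted p was 0.0271 with no filter on low counts, and with Ento+AZD it was 0.0308 without Ento+AZD replicate 1. Without the replicate block the adjusted p of these 2 was 0.646 and 0.480, and other left-out libraries gave up to 0.263 and 0.297.

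IL10RB, the second chain of the interleukin-10 receptor, named here after its values were seen, moved otherwise. It held 36.8, 21.8 and 32.6 CPM in DMSO replicates 1, 2 and 3, 23.5, 12.9 and 25.7 CPM with Ento, and 19.2, 20.1 and 19.2 CPM with Ento+AZD, the last of these wholly below DMSO. IL10RB fell with Ento by 0.56 on the log2 scale (edgeR adjusted p = 0.0355) and with Ento+AZD by 0.60 (adjusted p = 0.00685), and with AZD its log2 fold change was -0.39 (adjusted p = 0.0777). Without the replicate block the adjusted p of the falls was 0.405 and 0.0843. The fall with Ento was lost without DMSO 1 or 3, Ento 1 or 2 or AZD 2 (adjusted p up to 0.193), and that with Ento+AZD without Ento+AZD 1 (adjusted p = 0.0658).

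With replicate number removed, IL21R and IL10RA ran against each other over the 12 libraries (Pearson r = -0.893, as a description). Their estimated differences, called or not, had opposite signs in each comparison with DMSO and in each comparison between exposures. IL4R had little relation to either, with r = 0.02 to IL21R and -0.09 to IL10RA.

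**Figure D2:**
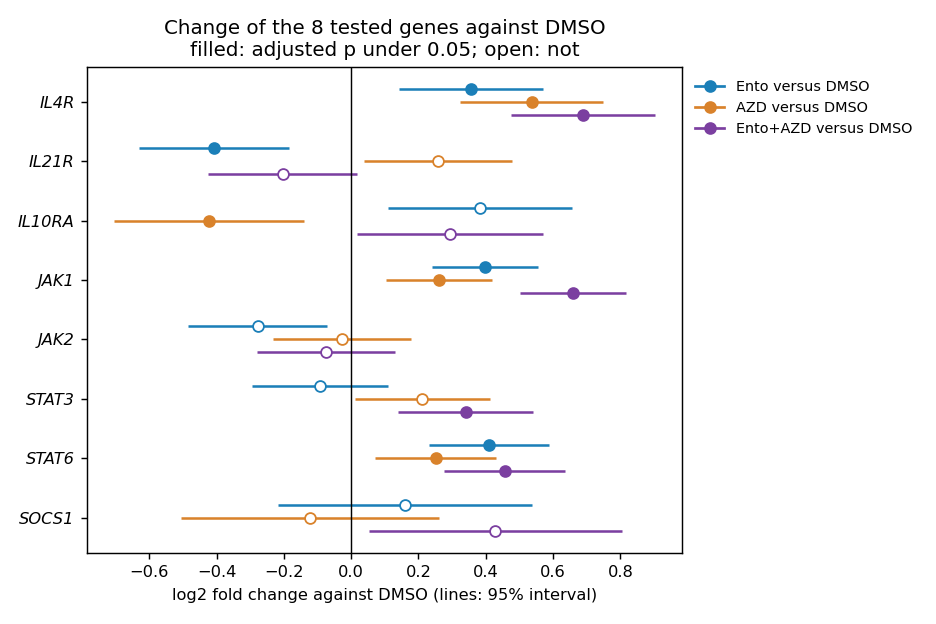
Log2 fold change of the 8 tested genes (x axis) with its 95% confidence interval, by gene (y axis) and exposure against DMSO (colour), from the edgeR model with replicate number, with filled points where the adjusted p lay under 0.05. JAK1, IL4R and STAT6 sit right of zero in the 3 comparisons with DMSO, and IL21R and IL10RA sit on opposite sides of zero for each exposure.

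The kinases differed from each other. JAK1, which serves all 3 of these receptors, lies at chr1:64833223-65067754 on the minus strand. It held 65.7, 66.1 and 58.9 CPM in DMSO replicates 1, 2 and 3, 72.4, 77.4 and 78.6 CPM with AZD, 85.9, 84.2 and 80.7 CPM with Ento, and 96.8, 105 and 99.7 CPM with Ento+AZD. The 4 groups were separated without overlap, in the order DMSO, AZD, Ento, Ento+AZD, and their means were 63.6 ± 4.03, 76.1 ± 3.30, 83.6 ± 2.65 and 100.4 ± 3.97 CPM (SD, n = 3). Neighbours in that order passed the test against each other except AZD and Ento, whose difference of 0.14 on the log2 scale did not (adjusted p = 0.241).

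JAK1 rose by a log2 fold change of 0.40 (SE 0.07, edgeR adjusted p = 0.00537) with Ento, 0.26 (SE 0.07, adjusted p = 0.0218) with AZD and 0.66 (SE 0.07, adjusted p = 2.01e-05) with Ento+AZD, the last of these a 1.58-fold level (95% CI 1.42 to 1.76). Ento+AZD exceeded Ento by 0.26 (adjusted p = 0.0208), where 20.4% of all tested genes differed between these groups, and exceeded AZD by 0.40 (adjusted p = 0.00514). The 2 single-agent changes added up on the log2 scale to the change with both, with an interaction of 0.0026 (95% CI -0.22 to 0.23, adjusted p = 0.995). JAK1 was the only one of the 8 genes for which Ento+AZD passed the test as higher than DMSO and than both single agents. For IL4R, STAT3, STAT6 and SOCS1 the estimates were also above DMSO and both single agents, but not each difference passed.

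Fitted without the replicate block, JAK1 kept its rise with Ento+AZD (adjusted p = 0.00154), while Ento and AZD against DMSO had an adjusted p of 0.0671 and 0.107. Ento+AZD against Ento and against AZD did not pass in that fit either (adjusted p = 0.123 and 0.110). Without Ento replicate 1 the rise with Ento had an adjusted p of 0.0517. The rise with AZD was lost without DMSO 3, AZD 2 or AZD 3 (adjusted p up to 0.153), and the difference of Ento+AZD from Ento without Ento 1, 2 or 3 or Ento+AZD 2 or 3 (adjusted p up to 0.104). LINC01359 shares 4.91% of the JAK1 exon bases on the same strand.

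JAK2, a kinase of receptors such as those for erythropoietin and interferon-gamma, lies at chr9:4984390-5129948 on the plus strand and did not pass the test in any comparison. It held 22.1, 22.9 and 21.9 CPM with DMSO, 17.5, 20.7 and 17.2 CPM with Ento, 18.6, 24.9 and 22.7 CPM with AZD, and 18.2, 24.1 and 21.7 CPM with Ento+AZD in replicates 1, 2 and 3. All Ento libraries lay below all DMSO libraries, with a log2 fold change of -0.28 (95% CI -0.49 to -0.07, edgeR adjusted p = 0.0905). With Ento+AZD the log2 fold change was -0.07 (95% CI -0.28 to 0.13, adjusted p = 0.568).

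Their relatives were measured in the same fit. TYK2, the kinase partner of JAK1 at the interleukin-10 receptor, ranged from 150.1 to 181 CPM with DMSO and from 231 to 255 CPM with Ento+AZD, groups that did not overlap. It rose with AZD by 0.25 (edgeR adjusted p = 0.0284) and with Ento+AZD by 0.55 (adjusted p = 6.52e-05), the latter also without the replicate block (adjusted p = 0.0160), and with Ento the log2 fold change was 0.24 (adjusted p = 0.0548). The call with AZD was lost without DMSO 1 or 2 or AZD 1, 2 or 3 (adjusted p up to 0.152), and that with Ento was gained without Ento 3 or Ento+AZD 2 (adjusted p down to 0.0435) and with DESeq2. JAK3, the kinase bound to the common gamma chain, was scarce at 3 to 23 counts per library and was not called against DMSO. It was higher with Ento than with AZD by 1.66 on the log2 scale (SE 0.47, adjusted p = 0.0294), without overlap of these groups, a call lost without Ento 1 or 2 or AZD 1, 2 or 3 (adjusted p up to 0.165) and without the replicate block (adjusted p = 0.0834). The common gamma chain gene IL2RG, shared by the receptors for interleukin-4 and interleukin-21, was not called against DMSO, with log2 fold changes of 0.20, -0.08 and -0.04 for Ento, AZD and Ento+AZD.

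Of the STATs, STAT6 transmits the interleukin-4 signal and lies at chr12:57095408-57132139 on the minus strand. It held 282, 351 and 256 CPM in DMSO replicates 1, 2 and 3, 360.3, 478 and 343 CPM with Ento, 306, 395 and 352 CPM with AZD, and 389, 429 and 390.2 CPM with Ento+AZD. All Ento+AZD libraries exceeded all DMSO libraries, and the other groups overlapped DMSO. STAT6 rose with Ento by 0.41 (SE 0.08, edgeR adjusted p = 0.00905), with AZD by 0.25 (SE 0.08, adjusted p = 0.0441) and with Ento+AZD by 0.46 (SE 0.08, adjusted p = 7.39e-04).

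Unlike JAK1, STAT6 showed no detectable gain from adding AZD to Ento, with a difference of 0.05 on the log2 scale (95% CI -0.13 to 0.23, adjusted p = 0.734). Whether the 2 genes differ in this was not tested. Fitted without the replicate block, the adjusted p was 0.316 for Ento, 0.375 for AZD and 0.0641 for Ento+AZD. The rise with AZD was lost in 9 of the 12 fits that left out a library, those without DMSO 1 or 3, any Ento library, AZD 2 or 3, or Ento+AZD 1 or 3 (adjusted p up to 0.258), and in the fit of AZD and DMSO alone. The rise with Ento was lost without Ento 2 (adjusted p = 0.0789). Exons of NAB2 and LRP1 on the opposite strand share 0.945% and 0.808% of the STAT6 exon bases.

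STAT3, which transmits interleukin-10 and interleukin-21 signals, lies at chr17:42313324-42388540 on the minus strand. It held 52.9, 55.5 and 41.3 CPM in DMSO replicates 1, 2 and 3, 47.4, 57.6 and 36.6 CPM with Ento, 50.9, 71.0 and 52.2 CPM with AZD, and 60.0, 71.7 and 57.7 CPM with Ento+AZD. The Ento+AZD libraries exceeded all DMSO and all Ento libraries and overlapped those with AZD. The log2 fold change was -0.09 with Ento (SE 0.09, edgeR adjusted p = 0.595) and 0.21 with AZD (SE 0.09, adjusted p = 0.120), neither of which passed the test. Without AZD replicate 1 the value with AZD did (adjusted p = 0.0447).

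With Ento+AZD, STAT3 rose by 0.34 (SE 0.09, adjusted p = 0.0102), and it stood 0.43 above Ento alone (SE 0.09, adjusted p = 0.00576). It was lower with Ento than with AZD by a log2 difference of -0.30 (adjusted p = 0.0437), where 14.7% of all tested genes differed between these groups. Leaving out Ento+AZD replicate 3 ended the first call (adjusted p = 0.0719), leaving out Ento replicate 3 the second (adjusted p = 0.0570), and leaving out Ento 1, 2 or 3, AZD 2 or 3 or Ento+AZD 1 the third (adjusted p up to 0.232). With treatment as the only term the adjusted p was 0.209, 0.246 and 0.460 for these comparisons.

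The STAT5 genes did not rise. STAT5A fell with AZD by 0.55 on the log2 scale (edgeR adjusted p = 0.00145) and with Ento+AZD by 0.41 (adjusted p = 0.00264), and STAT5B fell with AZD by 0.37 (adjusted p = 0.00915). Both STAT5 proteins serve receptors that use the common gamma or the common beta chain. With treatment as the only term the adjusted p of these 3 falls lay between 0.125 and 0.183, and without AZD replicate 3 that of STAT5B was 0.0800. With Ento+AZD the log2 fold change of STAT5B was -0.19 (adjusted p = 0.0877), which passed the test without DMSO replicate 2 (adjusted p = 0.0440).

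Of the feedback inhibitors, 1 of 3 had enough counts to be tested. SOCS1, which binds and blocks the JAKs, is a short gene at chr16:11254417-11256204 on the minus strand. It held 17.3, 15.8 and 10.7 CPM in DMSO replicates 1, 2 and 3, 16.2, 27.0 and 9.28 CPM with Ento, 12.7, 23.4 and 7.40 CPM with AZD, and 24.1, 25.4 and 11.9 CPM with Ento+AZD. The groups overlapped one another throughout, and replicate 3 was the lowest library in each of the 4.

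SOCS1 stood at log2 fold changes of 0.16 with Ento (95% CI -0.22 to 0.54, edgeR adjusted p = 0.627), -0.12 with AZD (95% CI -0.51 to 0.26, adjusted p = 0.661) and 0.43 with Ento+AZD (95% CI 0.05 to 0.81, adjusted p = 0.0658), none of which passed the test. Ento+AZD was higher than AZD in 3 of 3 pairs, by 0.55 on the log2 scale (adjusted p = 0.0579). Both of these last values lay near the threshold, passed it under some alternatives and moved away from it under others. Without DMSO 3, AZD 2 or Ento+AZD 2 the adjusted p for Ento+AZD against DMSO reached 0.0237, in the fit of these groups alone it was 0.0317, and with no filter on low counts 0.0038. For Ento+AZD against AZD it was 0.0212 with DESeq2, 0.0263 in the fit of these groups alone and 2.85e-04 with no filter. It reached 0.0129 without DMSO 2, DMSO 3 or AZD 2. Without the replicate block the edgeR adjusted p was 0.455 for Ento+AZD against DMSO and 0.644 against AZD. Other fits that left out a library gave up to 0.386 and 0.256. The fit with no filter moved other values too. With Ento it took the edgeR adjusted p of IL10RB from 0.0355 to 3.35e-05 and that of SOCS1 from 0.627 to 0.671.

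SOCS3, an inhibitor of receptors that signal through STAT3 (chr17:78356778-78360077, minus strand), was listed at 0 counts in all 12 libraries. A count of 0 allows up to 3 counts per library, or 0.118 to 0.169 CPM, counting error only. Other listed genes, such as SOCS6 and STAT4, were also at 0 throughout, and whether such a 0 reflects expression or the counting of reads cannot be told apart here. CISH, an inhibitor best known from STAT5 signalling (chr3:50606489-50611774, minus strand), had 11 counts in all. Replicates 1, 2 and 3 held 0, 1 and 0 counts with DMSO, 1, 1 and 0 with Ento, 1 each with AZD, and 4, 0 and 1 with Ento+AZD. At this depth no difference in either gene between the groups was detectable.

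The sequence before the start of CISH and of SOCS1 is shown because CISH was the only one of the 10 genes with a STAT motif there and SOCS1 was the feedback gene with enough counts to be tested. The 250 bases before the RefSeq start (GRCh38.p14) were searched on both strands for the letters TTCNNNGAA, the spacing bound by most STATs, and for the form with 1 further base between TTC and GAA, the wider spacing bound by STAT6. The windows below are chr3:50611775-50612024 for CISH and chr16:11256205-11256454 for SOCS1, both on the minus strand and written 5′ to 3′, with matches in capitals.
CISH: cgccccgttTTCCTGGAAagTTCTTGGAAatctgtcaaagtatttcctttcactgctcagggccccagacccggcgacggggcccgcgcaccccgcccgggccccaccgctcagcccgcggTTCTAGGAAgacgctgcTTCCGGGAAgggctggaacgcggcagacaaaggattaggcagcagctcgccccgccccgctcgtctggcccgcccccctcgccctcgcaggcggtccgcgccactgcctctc
SOCS1: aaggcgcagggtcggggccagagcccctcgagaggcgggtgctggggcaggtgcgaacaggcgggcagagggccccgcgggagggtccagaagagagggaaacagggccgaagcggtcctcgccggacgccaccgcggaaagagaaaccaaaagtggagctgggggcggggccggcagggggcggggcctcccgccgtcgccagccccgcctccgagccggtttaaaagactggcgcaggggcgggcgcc

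The CISH window held 4 matches to TTCNNNGAA, beginning 241, 230, 129 and 112 bases before the start, which do not overlap one another. The SOCS1 window held neither set of letters. All 10 genes had a window in the table, and CISH was the only one of them with a match, whereas 6.57% of 35116 windows of this length held TTCNNNGAA, 5.38% held the wider form and 11.5% either. A match describes letters and not binding, and windows without one say nothing of sites elsewhere. The windows of CISH and SOCS1 adjoin the GENCODE start of the gene, whereas those of the other 8 lie wholly or, for STAT3, partly inside the GENCODE gene, and so do not lie before its outermost start.

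Ento and AZD together were compared with the sum of their single effects for every gene. The interaction was called in 0% of all tested genes by edgeR, 1652 genes (9.81%) had an unadjusted p under 0.05, and DESeq2 called 7 genes. None of the 8 genes was among any of these. Their interaction estimates ran from -0.20 for STAT6 and IL4R to 0.39 for SOCS1 on the log2 scale, with 95% confidence intervals that all contained zero.

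Few or no counts were listed for the ligands of these receptors. None of 15 cytokine genes searched, among them IL4, IL10 and IL21, had enough counts to be tested, 6 were at 0 in all 12 libraries, and 12 never exceeded 3 counts in a library. IL4 and IL21 had no count and IL10 had 2 counts over all 12 libraries, named here after their values were seen. As with SOCS3, whether a 0 reflects expression or the counting of reads cannot be told apart here. Cytokines of the culture serum were not measured.

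Beyond the 10 genes, 77 further pathway genes were listed, of which 47 were tested. With Ento, 3 rose and 4 fell, where 8.32% of all tested genes changed. With AZD, 2 rose and 13 fell, where 9.57% of all tested genes rose and 12.7% fell. With Ento+AZD, 9 rose and 19 fell, where 19.2% rose and 20.8% fell. Their median log2 fold changes of -0.11, -0.13 and -0.18 lay below the 0.01 of all genes, while those of the 8 genes lay above it.

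**Figure D3:**
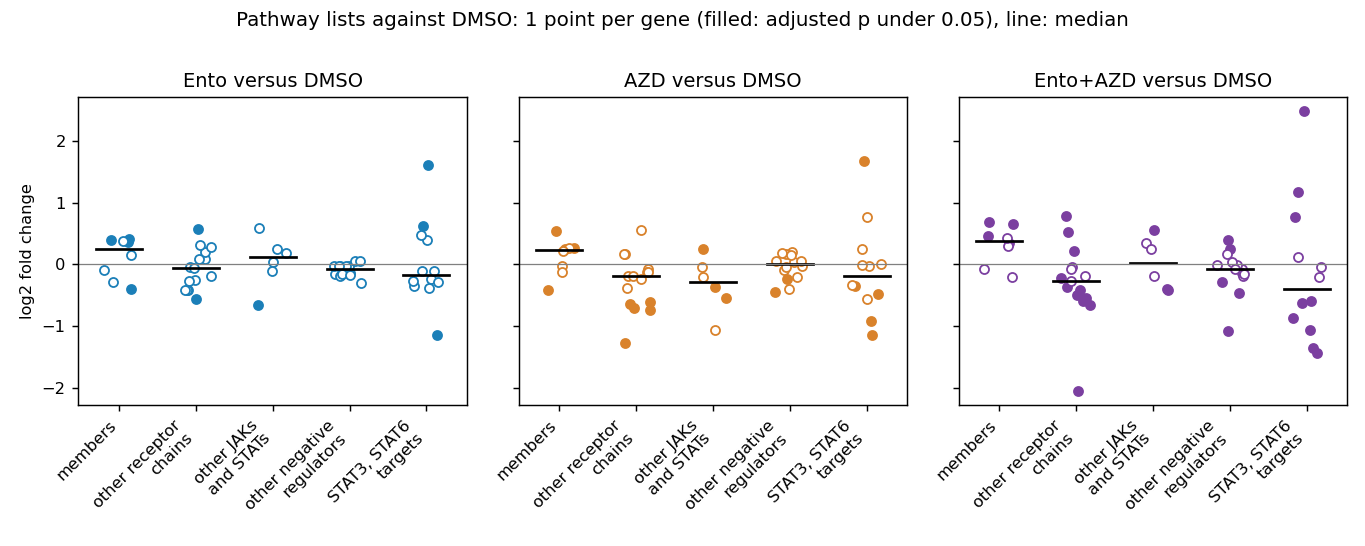
Log2 fold change against DMSO (y axis) of each tested gene, 1 point per gene, for the 8 tested genes described above (members) and each further pathway list (x axis), in 1 panel per exposure, with filled points where the edgeR adjusted p lay under 0.05 and a line at the median. With Ento+AZD the median of the 8 genes is 0.38, that of the other receptor chains -0.28 and that of the STAT3 and STAT6 targets -0.40.

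Of 24 other cytokine receptor chains, 15 were tested, and 1 rose and 2 fell with Ento, none rose and 5 fell with AZD, and 3 rose and 8 fell with Ento+AZD, where 8.32%, 22.2% and 40.0% of all tested genes changed. IL7R, the alpha chain of the interleukin-7 receptor, held 2.51 to 6.12 CPM with DMSO and 0.508 to 1.96 CPM with Ento+AZD, groups that did not overlap. It fell with Ento+AZD by 2.06 on the log2 scale (SE 0.27, edgeR adjusted p = 5.74e-05) and with AZD by 0.75 (adjusted p = 0.0344), and its log2 fold change with Ento was -0.42 (adjusted p = 0.274). Without the replicate block the adjusted p was 0.0529 for Ento+AZD and 0.557 for AZD, and the fall with AZD was lost without DMSO 2 or 3, Ento 1 or AZD 2 or 3 (adjusted p up to 0.192). IL5RA, the interleukin-5 receptor alpha chain, was a DEG with AZD (log2 fold change -1.28, adjusted p = 0.0434) at only 3 to 20 counts per library, and lost that call in 10 of the 12 fits that left out a library, all but those without DMSO 2 or Ento+AZD 2. The T-cell markers CD247 and TRAC also fell, by 1.24 and 1.12 with AZD and by 1.53 and 1.89 with Ento+AZD on the log2 scale, and their part in the falls of IL7R and IL5RA was not tested.

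Of 16 other negative regulators, 14 were tested, and none changed with Ento, 2 fell with AZD, and 2 rose and 3 fell with Ento+AZD, where 8.32%, 22.2% and 40.0% of all tested genes changed. PTPN6, which encodes the phosphatase SHP-1, held 15.7, 23.3 and 3.73 CPM in DMSO replicates 1, 2 and 3 and 7.34, 7.0 and 3.72 CPM with Ento+AZD, groups that overlapped through replicate 3. It fell with Ento+AZD by 1.08 on the log2 scale (SE 0.26, adjusted p = 0.00469), and without the replicate block the adjusted p was 0.177. Among the SOCS relatives, SOCS5 fell with AZD by 0.45 (edgeR adjusted p = 0.0308) and with Ento+AZD by 0.47 (adjusted p = 0.0142) on the log2 scale, SOCS4 fell with Ento+AZD by 0.28 (adjusted p = 0.0296), and SOCS7 was not called. The falls of SOCS5 and SOCS4 were not followed in the fits without the replicate block or with a library left out. SOCS2, with at most 3 counts in a library, and SOCS6, listed at 0 in all 12 libraries, were not tested.

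Of 15 listed target genes of STAT3 or STAT6, 12 were tested, and 2 rose and 1 fell with Ento, 1 rose and 4 fell with AZD, and 3 rose and 6 fell with Ento+AZD, against 8.32%, 22.2% and 40.0% of all tested genes. FCER2, which encodes the low-affinity IgE receptor CD23 and is induced in B cells by interleukin-4 through STAT6, rose with each exposure. It held 1.43, 3.85 and 0.589 CPM in DMSO replicates 1, 2 and 3, 3.78, 14.8 and 1.23 CPM with Ento, 3.50, 13.1 and 2.56 CPM with AZD, and 8.76, 14.5 and 5.13 CPM with Ento+AZD. Within every replicate number DMSO was the lowest and within every group replicate 2 was the highest, and the Ento+AZD libraries alone lay wholly above DMSO.

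FCER2 rose by a log2 fold change of 1.61 (SE 0.30, edgeR adjusted p = 0.00589) with Ento, 1.68 (SE 0.31, adjusted p = 0.00227) with AZD and 2.48 (SE 0.30, adjusted p = 3.19e-05) with Ento+AZD, a 5.59-fold level with both. Without the replicate block the adjusted p was 0.483, 0.308 and 0.0983, and without Ento replicate 2 the rise with Ento had an adjusted p of 0.0878. IL4I1, an amino acid oxidase induced by interleukin-4, was a DEG with Ento+AZD (log2 fold change 1.17, adjusted p = 0.0246) at 5 to 19 counts per library, and lost this call without DMSO 1 or 2 or Ento+AZD 1 or 2 (adjusted p up to 0.117), without the replicate block (adjusted p = 0.0551) and with DESeq2.

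Other target genes fell. PIM1, a serine/threonine kinase that STAT3 and STAT5 can induce, held 32.0, 21.7 and 55.4 CPM in DMSO replicates 1, 2 and 3, 33.1, 12.9 and 50.1 CPM with Ento, 25.4, 7.54 and 17.0 CPM with AZD, and 15.2, 6.77 and 19.4 CPM with Ento+AZD. The Ento+AZD libraries all lay below DMSO, and replicate 2 was the lowest of every group. PIM1 fell with AZD by 1.14 (SE 0.20, edgeR adjusted p = 0.00212) and with Ento+AZD by 1.43 (SE 0.21, adjusted p = 1.24e-04) on the log2 scale, and with Ento its log2 fold change was -0.27 (adjusted p = 0.429). Without the replicate block the adjusted p was 0.270 and 0.0989.

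BATF, a transcription factor of the AP-1 family, fell instead where Ento was present. It held 4.53, 2.70 and 2.51 CPM with DMSO, 1.43, 1.33 and 1.57 CPM with Ento, 2.78, 2.73 and 2.13 CPM with AZD, and 1.61, 1.10 and 1.07 CPM with Ento+AZD, and both groups with Ento lay wholly below DMSO. The fall was 1.15 on the log2 scale with Ento (SE 0.22, edgeR adjusted p = 0.00560) and 1.35 with Ento+AZD (SE 0.22, adjusted p = 3.26e-04), and with AZD the log2 fold change was -0.34 (adjusted p = 0.242). The fall with Ento+AZD passed without the replicate block (adjusted p = 0.0102), and that with Ento did not (adjusted p = 0.103) and was lost without Ento 1 (adjusted p = 0.0649). TGM2, which encodes a transglutaminase, was a DEG with Ento+AZD (log2 fold change -1.07, adjusted p = 0.0339) at 5 to 37 counts per library, and lost this call without DMSO 3 or any Ento+AZD library (adjusted p up to 0.184), without the replicate block (adjusted p = 0.185), with DESeq2 and in the fit of these groups alone.

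**Figure D4:**
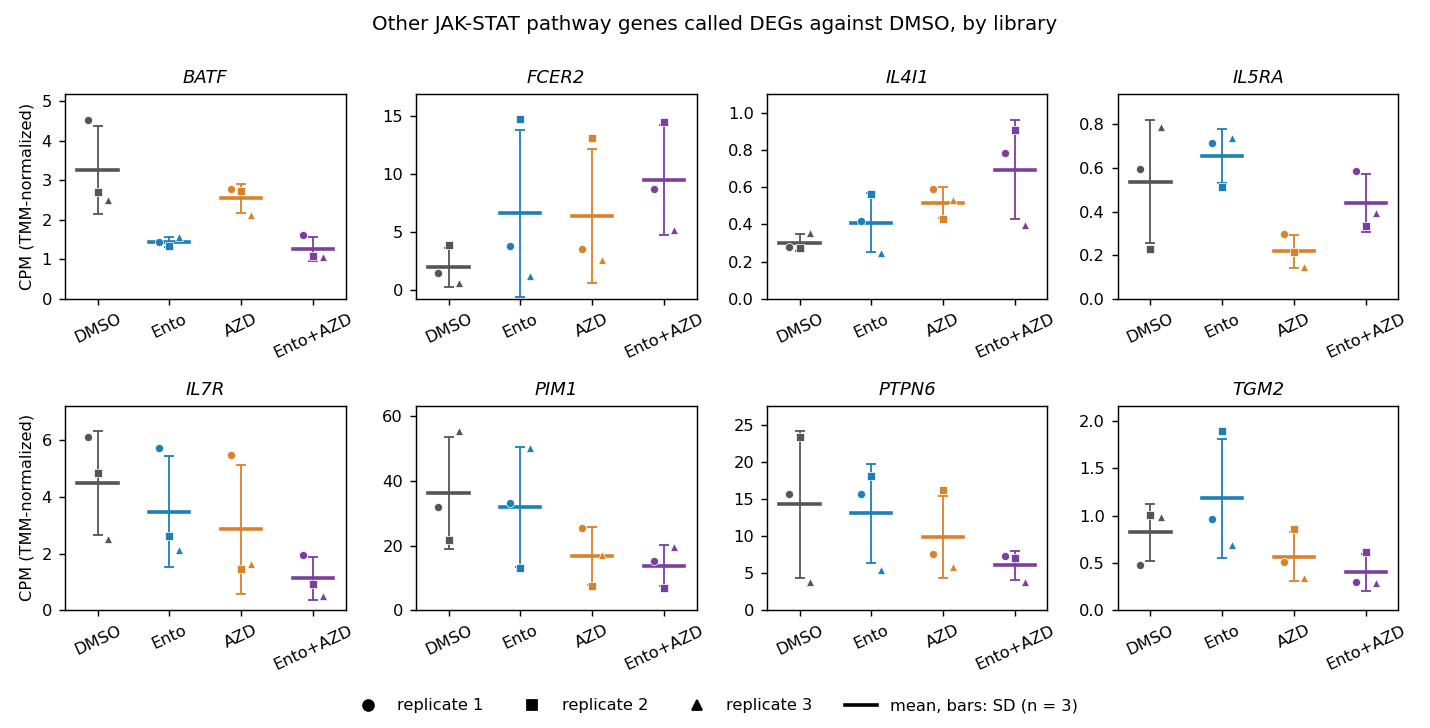
Expression of the pathway genes outside the 10 that were DEGs against DMSO (y axis, TMM-normalized CPM on a linear scale) by treatment group (x axis), 1 point per library, shaped by replicate number, with horizontal lines and bars for mean and SD (n = 3). The mean of FCER2 is highest with Ento+AZD (libraries 5.13 to 14.5 CPM). The means of IL7R (libraries 0.508 to 1.96 CPM) and PIM1 (libraries 6.77 to 19.4 CPM) are lowest there. Each of these ranges overlaps that with AZD.

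Over the 12 libraries with replicate number removed, the 3 genes that rose most with Ento+AZD ran together, with r = 0.893 between JAK1 and STAT6, 0.820 between IL4R and STAT6 and 0.796 between IL4R and JAK1. The libraries share these treatments, so the values describe likeness of pattern alone. Among 10913 genes with a mean of at least 5 CPM, the pattern of JAK1 was most like that of STX7 (r = 0.978), ZNHIT2 (0.975) and ARHGAP4 (0.971), that of IL4R most like MRPS25 (0.983), SNAPC4 (0.980) and SAFB2 (0.978), and that of STAT6 most like NAA40 (0.984), SNX29P2 (0.982) and QPCTL (0.972).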

How the data were processed

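The authors trimmed the single reads (CutAdapt, TrimGalore), used GRCh38.p13 for alignment and obtained gene counts with Rsubread. The strand setting, the treatment of reads that match several genes and the annotation release are not given in the sources used here. The deposited table holds raw counts, that is, whole reads per gene symbol with no scaling. A second deposited table of log2 values was not used. Groups and replicate numbers came from the sample labels. All libraries are of 1 cell line, and the study names 3 biological replicates.

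Counts were analysed with edgeR 4.0.16 in R 4.3.3. Genes were filtered with filterByExpr by group (minimum count 10, minimum total 15), normalized by TMM and fitted with treatment and replicate number, after the study's model of treatment and batch. For each contrast edgeR's quasi-likelihood F-test was run, and p-values were adjusted over all 16835 genes by Benjamini-Hochberg. An SE is the size of the log2 fold change over the square root of its F. The script was tested on simulated data. What the replicate number marks beyond a repeat is not stated. It was taken to pair the libraries, since deviations from group means correlated at 0.241 to 0.770 for the same number (18 pairs) and at -0.696 to 0.378 for different numbers (36 pairs). Libraries of 1 group differed beyond sampling noise (chi-square per degree of freedom 8.57 to 51.8).

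The members, the further gene lists and the tests were chosen with earlier results of these data known. Named beside the 10 genes were listed pathway genes that were DEGs against DMSO, the partners JAK3, TYK2, STAT5A, STAT5B and IL2RG, markers, and for the 3 genes with the largest called change with Ento+AZD the 3 genes of most similar pattern. A further listed partner is not reported here. IL10RB, SOCS relatives and 3 ligands were named after their values were seen. Promoter windows came from RefSeq and gene models from GENCODE v44. Alternatives were no replicate block, DESeq2 size factors, no filter, DESeq2 1.42.0, only the groups compared, and each library left out.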

Additional observations from a re-analysis of the deposited data

How the results depend on the processing

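Without the replicate block the number of the 8 tested genes that changed was 0 for Ento, 0 for AZD and 1 for Ento+AZD against DMSO, and 0 for each of Ento+AZD against Ento, Ento+AZD against AZD and Ento against AZD. In fits of only the groups compared it was 1 for AZD against DMSO and 5 for Ento+AZD against AZD. Leaving out 1 library gave 1 to 4 for Ento, 1 to 5 for AZD and 3 to 5 for Ento+AZD against DMSO, 0 to 3 for Ento+AZD against Ento, 2 to 4 for Ento+AZD against AZD, 2 to 3 for Ento against AZD and 0 for the interaction. No other setting moved such a count by over 1.5 times. Shares of all tested genes called in these fits are not given here. The counts thus cannot be read as particular to the 8 genes. DESeq2 size factors shifted the median of all genes by at most 0.0061 in size. Low counts limit SOCS3, CISH and the ligands, for which a change below 3 counts could not be seen. For genes at 0 in all 12 libraries, such as SOCS3, expression and the counting of reads cannot be told apart.

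Of the single values, 31 changed sign, all on leaving out 1 library and none of them a called value. As ranges over these fits, on the log2 scale, SOCS1 ran from -0.0946 to 0.317 with Ento and from -0.380 to 0.0399 with AZD, and JAK2 from -0.0951 to 0.0564 with AZD, from -0.147 to 0.00574 with Ento+AZD and from -0.117 to 0.00805 between Ento+AZD and AZD. Between Ento+AZD and Ento, IL10RA ran from -0.170 to 0.0538 and STAT6 from -0.00788 to 0.121. The interaction ran from -0.191 to 0.0519 for IL21R and from -0.0420 to 0.0596 for JAK1. Among partners and targets, PTPN6 ran from -0.295 to 0.191 with Ento, IL2RG from -0.328 to 0.167 with AZD and from -0.207 to 0.195 with Ento+AZD, and IL5RA from -0.517 to 0.107 and JAK3 from -0.136 to 0.766 with Ento+AZD. The cause was not tested.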

Other observations

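The replicate numbers were compared with each other, a comparison added after the data were seen. The replicate term was tested in the edgeR model used for treatment, with adjustment over all tested genes. Each adjusted p is of 1 joint test of any difference among the 3 replicate numbers, and single pairs of numbers were not tested. Of the 8 tested genes 7 passed, where 35.1% of all tested genes did. SOCS1 passed (adjusted p = 2.43e-04). Its estimates on the log2 scale were -0.82 for replicate 3 against 1 and 0.40 for replicate 2 against 1. Both were larger in size than or close to its change with Ento+AZD of 0.43. IL4R (adjusted p = 5.30e-04) had an estimate of 0.51 for replicate 2 against 1. For IL10RA (adjusted p = 0.00104) the estimate for replicate 3 against 1 was -0.56. STAT3, STAT6 and IL21R also differed by replicate number (adjusted p = 0.00218, 0.00509 and 0.00548), as did JAK2 (adjusted p = 0.0471). JAK1 alone of the 8 tested genes did not pass this test (adjusted p = 0.649), and it is also the gene with the call that remained without the replicate block. What the numbers stand for in the laboratory is not stated.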
